A study of Mus musculus with 4 samples.

Results

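The genes described here are the transcription factors of the BTB zinc-finger family and a few close relatives, among them Zbtb46, the gene whose locus drives the reporter of these mice. They were chosen by name, as every gene whose symbol begins with Zbtb and a digit, together with Bcl6, Bcl6b, Nacc1, Nacc2, Bach1 and Patz1. The rule found 48 of the 19938 genes with a probe set of their own on the array, through 52 of its 28853 probe sets, and the brightest probe set stood for each gene. Of the 48, 45 passed the filter on dim genes and were tested, while Zbtb8b, Bcl6b and Zbtb26 lay under it. The name rule also takes in Zbtb8os and Zbtb11os1, which are named for lying on the opposite strand of a BTB gene and are not BTB genes themselves. Nacc1, Nacc2 and Bach1 carry the BTB domain but no zinc fingers.

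Gene expression was measured on Affymetrix arrays in cDC2, the conventional dendritic cells best known for activating CD4 T cells, sorted from mouse spleen. There were 2 Id2 KO arrays from chimeric mice labelled as lacking Id2 and carrying Zbtb46-GFP, and 2 WT arrays from chimeric mice that carry Zbtb46-GFP alone. Both groups thus share the reporter, a green fluorescent protein placed at the Zbtb46 gene, and the number of reporter copies, the age and sex of the mice and the cells the chimeras kept from the host are not given in the sources used here. The labels are also silent on whether the 2 samples of a group are different mice. A p-value here therefore stands against sample-to-sample spread that could be purely technical. The text on the series mentions bone marrow too, but each sample is labelled as spleen.

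BTB zinc-finger proteins pair through an N-terminal BTB domain, which also recruits co-repressors such as NCOR and BCOR with histone deacetylases, and they bind DNA through zinc fingers at the other end. Several decide lineages in blood. Zbtb46 marks conventional dendritic cells and their committed precursors in mice, where it is not strictly needed for their formation and restrains genes of granulocytes and of dendritic cell activation. Zbtb16 (PLZF) directs natural killer T cells and precursors of innate lymphoid cells. Id2 binds E proteins and keeps them from their DNA sites, the E-boxes.

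The sequences below are windows at annotated starts of Zbtb46 and Zbtb18, the members whose difference passed the test. Both windows are shown because E-boxes are the sites from which Id2 keeps E proteins. They come from RefSeq on build GRCm38.p6, from 250 bases before to 50 after an annotated start, written 5′ to 3′ on the strand of the gene. Capitals mark every E-box, searched as CANNTG, a pattern that reads the same on both strands. The Zbtb46 window is chr2:181424339-181424638 on the minus strand, and the Zbtb18 window is chr1:177442101-177442400 on the plus strand, the most upstream of 5 windows listed for that gene.
Zbtb46: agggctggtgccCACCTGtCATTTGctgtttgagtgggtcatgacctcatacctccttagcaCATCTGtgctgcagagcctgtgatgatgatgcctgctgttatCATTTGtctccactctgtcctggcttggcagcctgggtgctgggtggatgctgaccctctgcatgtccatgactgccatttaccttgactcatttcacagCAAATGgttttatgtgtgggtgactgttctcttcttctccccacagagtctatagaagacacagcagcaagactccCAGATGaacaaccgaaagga
Zbtb18: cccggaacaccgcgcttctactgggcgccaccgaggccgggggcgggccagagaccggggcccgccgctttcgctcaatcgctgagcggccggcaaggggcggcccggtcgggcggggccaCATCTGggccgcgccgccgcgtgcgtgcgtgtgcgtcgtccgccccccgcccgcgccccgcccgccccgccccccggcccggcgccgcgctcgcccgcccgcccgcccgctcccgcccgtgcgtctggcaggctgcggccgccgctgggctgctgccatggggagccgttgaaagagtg

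The Zbtb46 window held 6 E-boxes, at -238, -231, -188, -146, -46 and 30 bases from the start site, which counts as 0, and the first of them is CACCTG, the form E proteins are best known for. The 5 Zbtb18 windows, some of which overlap, held 1, 5, 4, 1 and 4. Of the 48 members 41 had an entry, with 57 windows, of which 34 (59.6%) held an E-box, against 72.3% of all 32851 windows of the same length. CAGGTG or its reverse complement CACCTG was in 14.0% of the members' windows and in 20.2% of all windows. No other member window held as many E-boxes as that of Zbtb46, and 0.670% of all windows held at least 6. The members' windows were richer in G and C (median 63.3%) than all windows (52.7%). These matches describe letters in annotated windows, and which start site cDC2 use was not measured. Just before its start, the Zbtb46 window has a run rich in C and T that ends in AG, as introns do. Whether that window is a promoter was not tested, so its E-box count is not a result about the Zbtb46 promoter.

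Id2 was measured by a single probe set. Its log2 intensity was 8.71 and 8.97 in the Id2 KO arrays and 9.14 and 9.08 in the WT arrays, a difference of -0.27 with an adjusted p of 0.172 in limma, above the threshold of 0.05. It passed in 1 alternative, without Id2 KO replicate 2 (-0.40, adjusted p = 0.0343), and was -0.14 without Id2 KO replicate 1. No source used here says whether the probe set lies in the deleted part, and all directions rest on the labels. The arrays also differed in sex-linked genes. Xist was at 6.67 and 6.68 in Id2 KO and 11.96 on each WT array. Y-linked Kdm5d was at 8.08 and 8.50 in Id2 KO and 5.72 and 5.53 in WT. Genotype and the sex that these genes mark thus cannot be told apart in any difference given here, that of Zbtb46 included. Of 9 tested cDC2 markers 1 was higher and 3 were lower (summed intensity 15833 and 16051 in Id2 KO, 19720 and 19466 in WT). Of the 8 markers shared by conventional dendritic cells, all but Zbtb46 were bright on every array, among them Itgax and Flt3. The summed intensity of the 8 was 42704 and 45473 in Id2 KO and 43696 and 44095 in WT. H2-Ab1 and Cd74, the brightest, weigh most in this sum. Neutrophil markers were lower in Id2 KO for all 11 tested (summed intensity 1516 and 2429, against 17895 and 18537 in WT). Among them Mmp8, Mpo and Cxcr2 had both Id2 KO arrays under the filter level of 6.77. They were thus tested through the WT arrays alone. B cell markers were higher for 8 of 10 tested and lower for 1 (summed 3615 and 4031 in Id2 KO, 2702 and 2678 in WT), and cell cycle genes were higher for 10 of 11 (summed 17338 and 13802 in Id2 KO, 8288 and 8240 in WT). The B cell marker Cr2 had both WT arrays under the filter level (6.19 and 6.32), so it was tested through the Id2 KO arrays alone. No marker was at 0, since the lowest linear intensity of any probe set was 5.19, but no background was measured. In sorted bulk samples, fewer cells of a type and less RNA per cell cannot be told apart, and the part of these other cells in the results below was not tested.

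The BTB factors moved about as much as other genes did. Of 45 tested members, 1 fell (Zbtb46) and 1 rose (Zbtb18) in the Id2 KO arrays (limma, adjusted p below 0.05 over all 11963 genes tested). That is 4.44% of the members, beside 8.04% of all tested genes, of which 5.53% rose and 2.52% fell. The median difference of the members was 0.02 on the log2 scale, beside 0.01 over all tested genes, and it was -0.01 when the arrays were quantile normalized again and 0.04 when they were centred on their medians, so its sign depends on the scaling. In absolute size the median difference was 0.10 for the members and 0.10 for all tested genes, and 36 of 45 members lay within 0.2 of 0, or 80.0% of members beside 78.6% of all tested genes. The groups did not overlap for 22 of 45 members (48.9%), 13 higher and 9 lower, close to the 50.7% of all tested genes, of which 27.9% were higher and 22.8% lower. At an unadjusted p below 0.05 there were 9 members (20.0%), beside 20.7% of all tested genes. The 95% interval, not adjusted for the number of genes, reached a median of 0.19 to either side of a member's difference. Changes much smaller than that were not detectable with 2 arrays a group. The adjusted threshold is stricter, and even Zbtb33 at 0.36 did not pass it.

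**Figure D1:**
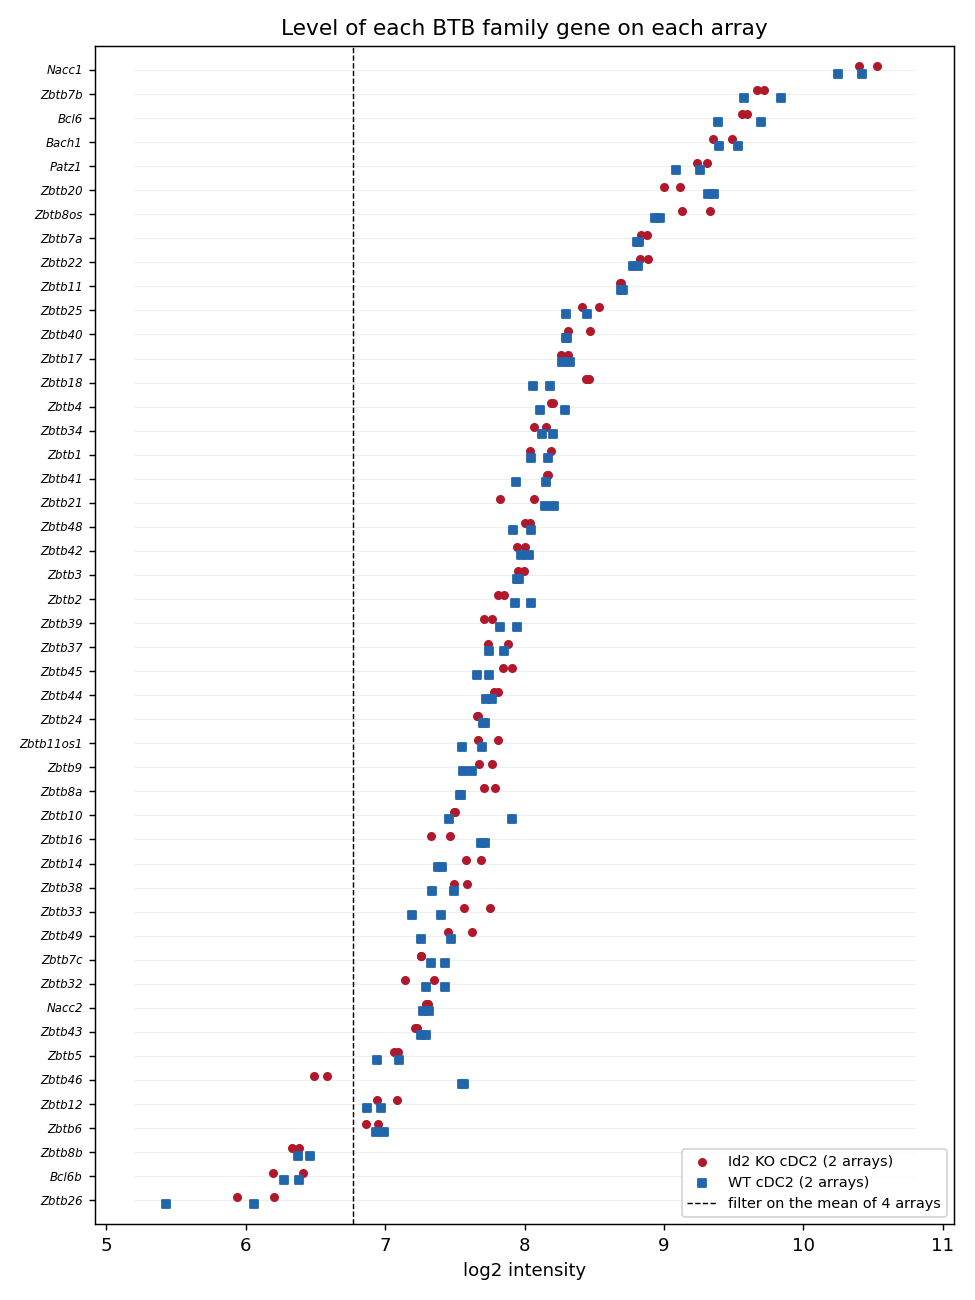
Log2 intensity of the 48 BTB family genes on each array, with Id2 KO arrays as circles and WT arrays as squares, and the filter on the mean of the 4 arrays (6.77) as a dashed line. Rows are ordered by mean intensity for display alone, since intensities of different probe sets are not comparable as levels. Both Zbtb46 circles lie left of the line and both squares right of it.

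Zbtb46 fell in the Id2 KO arrays, by more than any other member. Its log2 intensity was 6.49 and 6.59 in the Id2 KO arrays, against 7.57 and 7.55 in the WT arrays. The groups lay far apart, and the replicates within each group differed by 0.10 or less. The mean was 6.54 ± 0.07 in Id2 KO and 7.56 ± 0.01 in WT (SD, n = 2 each), a difference of -1.02 (95% interval -1.21 to -0.84) or 2.03-fold lower (limma, adjusted p = 1.35e-04). Its interval lay wholly below those of the other 44 tested members, the lowest of which reached down to -0.50 (Zbtb16). Only 35 of the 11963 tested genes had a lower difference. Over the 12 alternatives that could test it, the difference stayed between -1.07 and -0.97 and passed each time, with adjusted p from 8.78e-06 to 0.0024. Zbtb46 cleared the filter at 6.77 through the WT arrays alone, and no background was measured, so the size of the fall is not settled. The reporter sits at the Zbtb46 gene and its copies in each group are not given, so a difference in copies and a difference with Id2 genotype cannot be told apart in this value. The median over the 43 tested BTB genes, without the opposite-strand genes, was 7.85 and 7.88 in Id2 KO and 7.91 and 7.95 in WT, so relative to the median of the other members Zbtb46 fell by 0.99. Among the other conventional dendritic cell markers, Ccr7, the receptor of migrating dendritic cells, rose by 0.35 (adjusted p = 0.0439, lost in 6 of 13 alternatives, among them the fits without a filter, without WT replicate 1, without WT replicate 2 and without Id2 KO replicate 2, with adjusted p up to 0.202) and 6 did not pass, including Itgax at -0.01 and Flt3 at 0.11. The neutrophil, B cell and cell cycle markers above split the arrays in the same way as Zbtb46, and so did some markers of other cells. Of 5 tested monocyte markers 3 fell, Chil3 (-2.02), Cd14 (-0.88) and Lyz2 (-0.72). Cx3cr1 (0.09) and Csf1r (0.04) did not pass, and Ccr2 (0.15) and F13a1 (-0.32) of that list lay under the filter. Both Id2 KO arrays of Chil3 lay under the filter level (6.31 and 6.59), so it was tested through the WT arrays alone. The summed intensity of the list, in which Csf1r was the brightest, was 2500 and 2679 in Id2 KO and 3145 and 3320 in WT. Of 8 tested plasmacytoid dendritic cell markers 4 rose, Ly6d (1.31), Spib (1.07), Siglech (0.56) and Pacsin1 (0.34). Ptprs (0.09), Bst2 (0.04), Tcf4 (-0.07) and Ccr9 (-0.16) did not pass. The sum of this list was 3250 and 3041 in Id2 KO and 2701 and 2655 in WT. Of 5 tested markers of cDC1, the other conventional dendritic cells, 1 fell (Tlr3, -0.73) and 4 did not pass. Cadm1 (-0.16), Xcr1 (-0.33) and Clec9a (-0.41) of that list lay under the filter. The sum of the cDC1 list was 2612 and 2756 in Id2 KO and 2748 and 2780 in WT. Batf3 (0.05), the brightest of the list, weighs most in this sum. The erythroid gene Alas2 fell (-0.94, 1 of 2 tested), with a sum of 329 and 353 in Id2 KO and 518 and 511 in WT, and the part of these cells in the Zbtb46 value was not tested.

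Zbtb16 stood next to Zbtb46 in the order of the differences on the lower side, at a much smaller size. It had 7.33 and 7.46 in the Id2 KO arrays and 7.72 and 7.69 in the WT arrays. Both Id2 KO values lay below both WT values. The difference was -0.31 (95% interval -0.50 to -0.11, n = 2 each), or 1.24-fold lower, and did not pass (limma, adjusted p = 0.0641, with a range over the alternatives from 0.0367 to 0.313). It passed when the arrays were quantile normalized again (adjusted p = 0.0491) and without Id2 KO replicate 2 (-0.38, adjusted p = 0.0426). Relative to the median of the other members the difference was -0.28. T cells and innate lymphoid cells use Zbtb16. Of 9 tested markers of these cells 1 fell (the T cell receptor chain gene Cd3d, -0.43) and 1 rose (the interleukin 7 receptor gene Il7r, 0.49). The differences of the 9 were below 0 for 7 and above 0 for 2, with a median of -0.15. The call of Cd3d was lost without WT replicate 1 and without WT replicate 2 (adjusted p = 0.0737 and 0.0723), and that of Il7r without WT replicate 1 and without Id2 KO replicate 2 (0.246 and 0.0914). The summed intensity of the 12 measured markers of this list was 1980 and 2066 in Id2 KO and 2077 and 2199 in WT. Of genes reported in mouse as dependent on Zbtb16, the costimulatory receptor gene Icos (-0.25, adjusted p = 0.125), the chemokine receptor gene Ccr6 (-0.34, adjusted p = 0.159) and Il4ra (0.05, adjusted p = 0.818) did not pass, and Gata3 lay under the filter. Ccr6 passed without Id2 KO replicate 1 (-0.54, adjusted p = 0.0083) and was -0.14 without Id2 KO replicate 2.

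**Figure D2:**
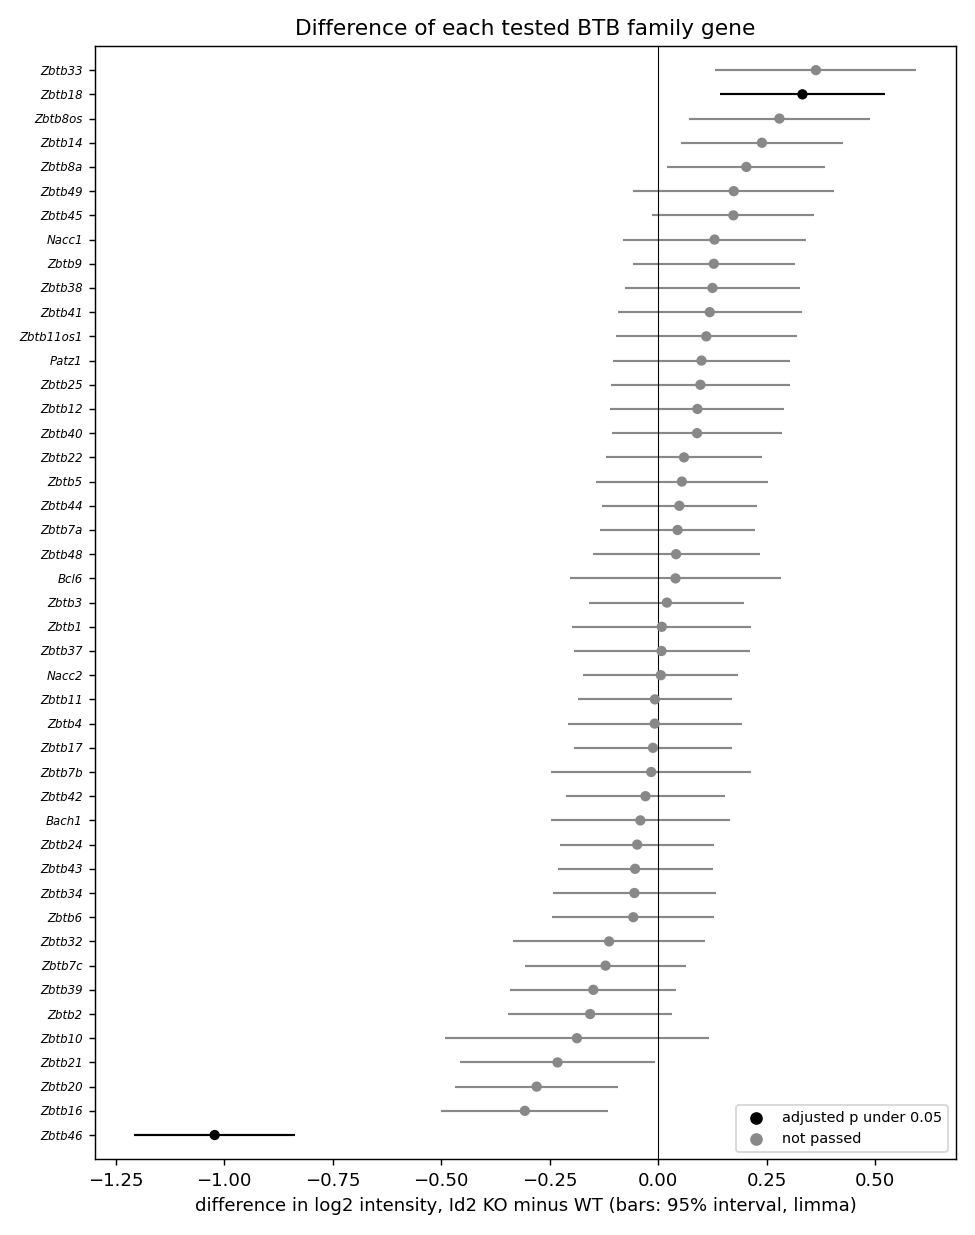
Difference in log2 intensity, Id2 KO minus WT, for each of the 45 tested members (points) with its 95% interval from limma (bars), in order of the difference, black where the adjusted p is below 0.05. The interval of Zbtb46 ends at -0.84, apart from all others, while most of the other intervals cross 0.

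Of 10 tested members that decide lineages in blood, grouped by role after their values were seen, 1 fell (Zbtb46) and 9 did not pass, beside 8.04% of all tested genes that passed. Zbtb16 and Zbtb20 came next to Zbtb46 on the lower side, with groups that did not overlap, and the other 7 lay between -0.11 and 0.10. Bcl6, the repressor of germinal centre B cells and follicular helper T cells, had 9.56 and 9.60 in Id2 KO and 9.39 and 9.69 in WT. The WT arrays enclosed both Id2 KO arrays, and the difference was 0.04 (95% interval -0.20 to 0.28, adjusted p = 0.883). Zbtb7b (ThPOK), which commits thymocytes to the CD4 lineage, differed by -0.02 (-0.25 to 0.21). Zbtb7a, a factor of erythroid and B cell development, differed by 0.04 (-0.13 to 0.22), and Zbtb17 (Miz-1), a partner of Myc, by -0.01 (-0.19 to 0.17). Zbtb1, needed for lymphocyte development, differed by 0.01, Patz1 (MAZR), a regulator of Cd8 in T cells, by 0.10, and Zbtb32, an inducible factor of lymphocytes, by -0.11. The intervals of these 7 include 0, which does not show equality, and each leaves out a change as large as that of Zbtb46.

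Zbtb20, a factor of plasma cells and of liver and brain, had 9.004 and 9.11 in Id2 KO and 9.36 and 9.32 in WT. The groups did not overlap, and the difference of -0.28 (95% interval -0.47 to -0.09) did not pass (limma, adjusted p = 0.0817). Its other probe set differed by -0.27, so both pointed the same way. Nacc1 (0.13 and 0.14), Zbtb2 (-0.16 and -0.08) and Zbtb44 (0.05 and 0.14) were the other members with more than 1 probe set, and in each the probe sets had the same sign.

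Zbtb18 (RP58), a repressor known best from the developing brain, was the member that rose. It had 8.46 and 8.44 in Id2 KO and 8.06 and 8.18 in WT. The Id2 KO arrays lay close together and above both WT arrays. The difference was 0.33 (95% interval 0.14 to 0.52, n = 2 each), or 1.26-fold (limma, adjusted p = 0.0439). This call was near the threshold and was lost in 7 of 13 alternatives, among them the fit without WT replicate 1 (0.27, adjusted p = 0.318), without WT replicate 2 (adjusted p = 0.0877), without Id2 KO replicate 1 (adjusted p = 0.126) and without Id2 KO replicate 2 (adjusted p = 0.0731). The difference stayed above 0 in all 13, from 0.27 to 0.39.

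The members that read methylated DNA did not pass. Zbtb33 (Kaiso) had the highest difference of the tested members, with 7.75 and 7.57 in Id2 KO and 7.19 and 7.40 in WT. The groups did not overlap, and the difference was 0.36 (95% interval 0.13 to 0.60, adjusted p = 0.0682, from 0.0152 to 0.433 over the alternatives). It passed without Id2 KO replicate 2 (0.45, adjusted p = 0.0349). Zbtb33 is the X-linked member, and Xist was lower in the same Id2 KO arrays. The median difference of the 330 tested X-linked genes was 0.01, with 14 higher and 10 lower. The part of sex in the Zbtb33 value was not tested. Zbtb38 differed by 0.13 (-0.08 to 0.33) and Zbtb4 by -0.01 (-0.21 to 0.19).

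**Figure D3:**
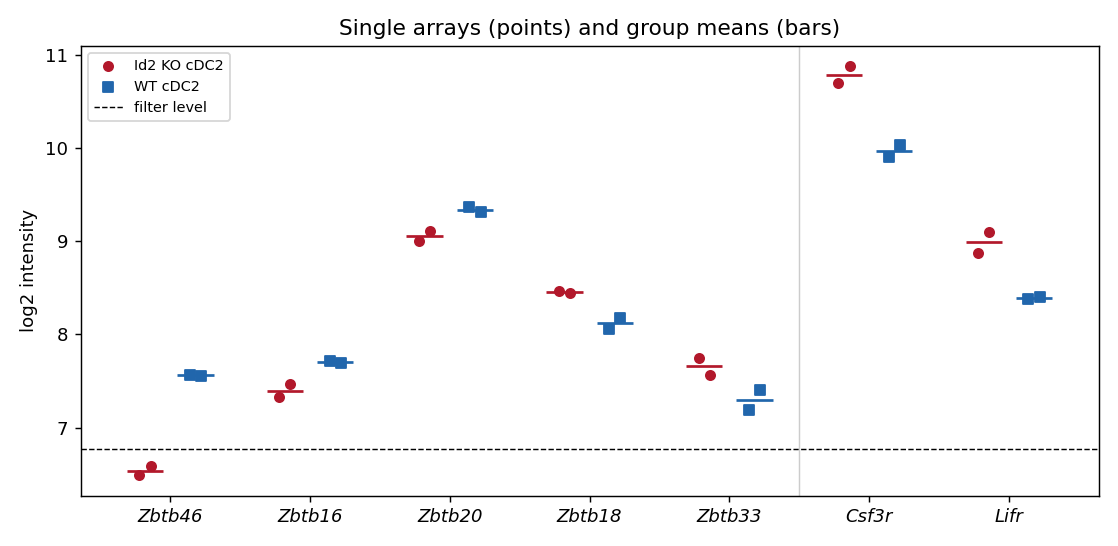
Log2 intensity on single arrays (points) and group means (bars) for the members with the largest differences and, right of the grey line, for Csf3r and Lifr, with Id2 KO as circles on the left of each pair and WT as squares on the right. The groups are apart for each gene shown, and Zbtb46 is the gene whose Id2 KO points fall under the dashed filter level of 6.77.

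BTB proteins without zinc fingers lay near 0. Bach1, a haem-sensing repressor of iron and antioxidant genes, had 9.49 and 9.35 in Id2 KO and 9.39 and 9.53 in WT, with overlapping groups and a difference of -0.04 (95% interval -0.25 to 0.16). Nacc1, a BTB protein with roles in pluripotency and cancer, had 10.53 and 10.40 in Id2 KO and 10.25 and 10.42 in WT, a difference of 0.13 (-0.08 to 0.34, adjusted p = 0.499). Nacc2 differed by 0.01. Of the opposite-strand genes, Zbtb8os, which encodes a factor of the tRNA ligase complex (archease), had 9.33 and 9.13 in Id2 KO and 8.97 and 8.94 in WT, without overlap of the groups. It differed by 0.28 and missed the threshold (adjusted p = 0.116). It passed without Id2 KO replicate 2 (0.38, adjusted p = 0.0404). Zbtb11os1 differed by 0.11.

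The other 27 tested BTB zinc-finger genes lay between -0.23 (Zbtb21) and 0.33 (Zbtb18), 16 above 0 and 11 below, and of these only Zbtb18 passed. After Zbtb18 the higher ones were Zbtb14 (0.24, adjusted p = 0.130), Zbtb8a (0.20, adjusted p = 0.191), Zbtb49 (0.17) and Zbtb45 (0.17). Zbtb14 had 7.68 and 7.58 in Id2 KO and 7.41 and 7.38 in WT, and Zbtb8a had 7.71 and 7.79 in Id2 KO and 7.54 and 7.55 in WT. Both were without overlap but missed the threshold. On the lower side, Zbtb21 had 8.07 and 7.82 in Id2 KO and 8.15 and 8.21 in WT (-0.23, adjusted p = 0.229), and Zbtb10 differed by -0.19 with WT replicates that stood 0.46 apart. Among the tested members in Id2 KO the widest gap between replicates was 0.25 (Zbtb21). Zbtb2 (-0.16), Zbtb39 (-0.15) and Zbtb7c (-0.12) followed. Zbtb24, whose human counterpart is mutated in an immunodeficiency with altered centromeric DNA methylation, differed by -0.05 (-0.23 to 0.13), and Zbtb48, which binds telomere repeats, by 0.04 (-0.15 to 0.23). Zbtb11 gave one of the smallest differences, with 8.69 and 8.70 in Id2 KO and 8.69 and 8.71 in WT.

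The 3 members under the filter were dim on all arrays. Zbtb8b lay between 6.33 and 6.46 and Bcl6b between 6.19 and 6.41 over the 4 arrays, with overlapping groups. Zbtb26 had 5.94 and 6.20 in Id2 KO and 5.43 and 6.06 in WT, a difference of 0.33 whose 95% interval in a fit of all genes ran from -0.08 to 0.74. None of the 3 passed in that fit, where adjusted p ranged from 0.467 to 0.949.

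Genes that members are known to control were looked up as a list of 30, of which 28 were measured and 25 tested. Of these 5 rose and 2 fell, or 7 of 25, beside 8.04% of all tested genes, and the median difference was -0.06. Some of these rises, among them that of Csf3r, were known from earlier results when the list was made, so the count is a description. Both listed targets of Zbtb46, genes reported as higher in mouse dendritic cells without Zbtb46, rose in the Id2 KO arrays. Csf3r, the receptor for G-CSF, the growth factor of neutrophils, had 10.70 and 10.88 in Id2 KO and 9.91 and 10.03 in WT. Its groups were well apart, and the difference was 0.82 (95% interval 0.61 to 1.03), or 1.76-fold (limma, adjusted p = 8.08e-04). Lifr, the receptor for leukaemia inhibitory factor, had 8.87 and 9.10 in Id2 KO and 8.38 and 8.40 in WT. Here too every Id2 KO array was higher, by 0.60 on average (0.38 to 0.81) or 1.51-fold (adjusted p = 0.00522). Both calls held in all 13 alternatives, with adjusted p up to 0.0116 for Csf3r and 0.0496 for Lifr. Csf3r is also a gene of neutrophils, whose 11 tested markers fell in the same arrays. The part of these cells in the Csf3r value was not tested.

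The 11 tested targets of Bcl6 went both ways, beside a Bcl6 difference of 0.04. Prdm1, the plasma cell regulator that Bcl6 represses, rose by 0.55 (8.17 and 8.24 in Id2 KO, 7.57 and 7.74 in WT, adjusted p = 0.0053). Socs2, an inhibitor of cytokine signalling, rose by 0.80 (8.45 and 9.01 in Id2 KO, 7.95 and 7.92 in WT, adjusted p = 0.0138) and S1pr1, the receptor for lymphocyte exit, by 0.42 (adjusted p = 0.0124). Cd44, an adhesion receptor, fell by 0.74 (8.24 and 8.08 in Id2 KO, 8.84 and 8.96 in WT, adjusted p = 0.00128) and kept this call in all 13 alternatives. The call of Prdm1 was lost without WT replicate 1 (adjusted p = 0.0630), and those of Socs2 (adjusted p = 0.0805 and 0.0667) and S1pr1 (0.0835 and 0.0820) were lost without WT replicate 1 and without WT replicate 2. Without Id2 KO replicate 2 the rise of Socs2 was 0.52. The other 7, among them Irf4 (-0.18), Id2 and Cd69 (-0.33), did not pass. Id2 is the gene that the Id2 KO samples are labelled as lacking, so its value is not read as that of a Bcl6 target. Cd69 passed without Id2 KO replicate 1 (-0.50, adjusted p = 0.0128) and was -0.16 without Id2 KO replicate 2. Prdm1 also belongs to B lineage cells, and 8 of 10 tested B cell markers rose in the same arrays. The part of these cells in the Prdm1 value was not tested.

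Of 6 tested targets of Bach1, the iron exporter gene Slc40a1 fell by 1.19 (6.30 and 6.09 in Id2 KO, 7.09 and 7.68 in WT, adjusted p = 0.00267). Both of its Id2 KO arrays lay under the filter level of 6.77, so it was tested through the WT arrays alone, and it was not tested with either WT array left out. The haem oxygenase gene Hmox1 at -0.44 did not pass (7.14 and 7.18 in Id2 KO, 7.42 and 7.78 in WT, adjusted p = 0.0511). It passed in 6 of 12 alternatives. Over all 12 its difference ran from -0.62 without WT replicate 1 to -0.27 without WT replicate 2. Slc40a1 and Hmox1 are also markers of red pulp macrophages, of whose 5 tested markers 3 fell (summed intensity of the 6 measured 1941 and 1983 in Id2 KO, 2482 and 2678 in WT). Adgre1 (-0.34), the brightest of that list, weighs most in its sum. The ferritin genes Fth1 (0.02) and Ftl1 (-0.01), which Bach1 represses as well, and Gclm (-0.11) and Slc7a11 (0.13) did not pass. The Zbtb7b targets Cd8a (-0.12) and Runx3 (-0.06) and the Zbtb17 target Cdkn2b (0.22) did not pass either.

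Of 24 tested partners of BTB proteins, among them co-repressors, deacetylases and ubiquitin ligase parts, 2 fell and none rose at the adjusted threshold. Their share is close to the 8.04% of all tested genes that passed in either direction, of which 2.52% fell, and the median difference was 0.04. The count of 2 ranged from 0 to 5 over the alternatives. Hdac4, a deacetylase that binds Bcl6 and Zbtb16, had 9.29 and 9.14 in Id2 KO and 9.62 and 9.67 in WT, a difference of -0.43 (adjusted p = 0.0161). With the mean of its probe sets the difference was -0.21 and the call was lost (adjusted p = 0.173). It was also lost without WT replicate 1 (adjusted p = 0.0913), without WT replicate 2 (0.0989) and without Id2 KO replicate 2 (0.0531). Bcorl1, an X-linked co-repressor, fell by 0.32 (6.72 and 6.72 in Id2 KO, 7.07 and 7.00 in WT, adjusted p = 0.0452), with its Id2 KO arrays under the filter level, and its call was lost with each array left out (adjusted p from 0.0887 to 0.297). Hdac3, the deacetylase of the NCOR complex, at 0.39 (adjusted p = 0.0591), Hdac1 at 0.30 (adjusted p = 0.0905) and Cul3, the ubiquitin ligase scaffold that BTB proteins join, at 0.22 (adjusted p = 0.152) did not pass. Without Id2 KO replicate 2, Hdac3 (0.49, adjusted p = 0.0306) and Hdac1 (0.39, adjusted p = 0.0417) passed. Of 12 other BTB genes outside the name rule, such as Bach2, Hic1 and Keap1, none passed in limma, and 0 had an unadjusted p below 0.05, with differences from -0.22 (Klhl6) to 0.17 (Hic1).

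**Figure D4:**
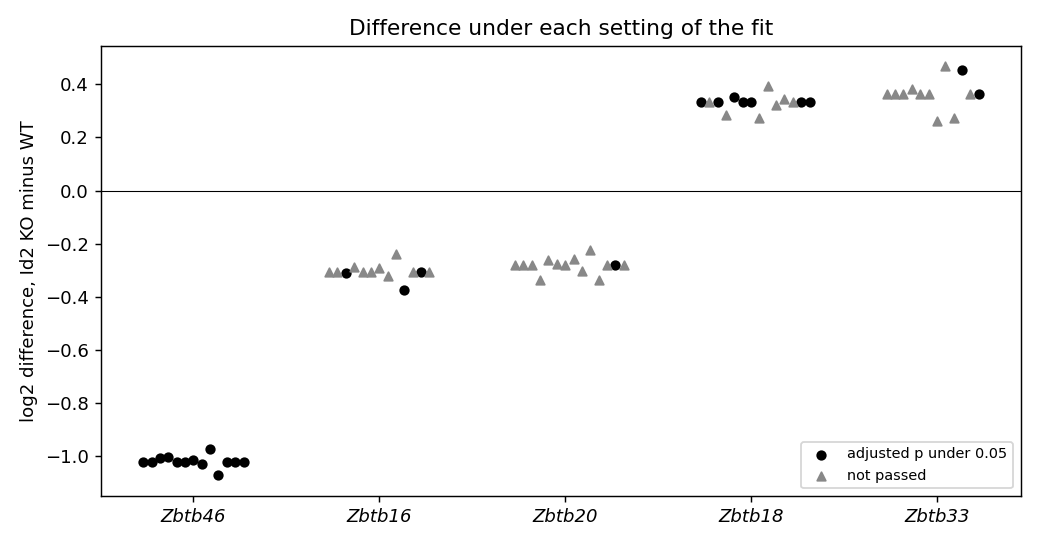
Difference in log2 intensity, Id2 KO minus WT, of 5 members under the setting reported and each alternative that could test the gene (points, left to right in a fixed order), as black circles where the adjusted p is below 0.05 and grey triangles where it is not. Zbtb46 stays between -1.07 and -0.97 and is black throughout, while the other 4 lie on both sides of the threshold.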

How the data were processed

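RNA of 4 samples of sorted splenic cDC2 was amplified, labelled and hybridized to 1 Affymetrix array each. The authors deposited 1 linear intensity value for every probe set of an array. The submitters' processing notes name Affymetrix Expression Console and RMA, without version or order, and the genome build is not given in the sources used here. RMA adjusts background and makes arrays alike, so changes in total RNA are largely removed. Median intensities were 128 and 132 in Id2 KO and 134 and 130 in WT.

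The deposited values were taken to log2 without a pseudocount. Symbols came from the platform annotation, updated by gene ID (21698 of 21789 probe sets with 1 symbol matched the GRCm38.p6 gene table), while 1621 probe sets had several symbols and 5443 were not listed. The filter kept the 11963 of 19938 genes whose mean exceeded the 40th percentile (log2 6.77). The test was limma 3.58.1 on R 4.3.3 (lmFit, then eBayes, two-sided, Benjamini-Hochberg over all tested genes, threshold 0.05). Adjusted p-values are from this fit, intervals are 95% intervals not adjusted for the number of genes, and differences are Id2 KO minus WT. The procedure was run on simulated data with independent noise and no mixture of cells, which cannot vouch for the calls reported here. The number of arrays limits the precision. Alternatives were other filters, scalings and probe set rules, an intensity trend, each array left out, replicate blocks and the fit without X- and Y-linked genes.

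Members, lists, tests and alternatives were chosen with earlier results of these data known. Members named are Zbtb46, Zbtb16, those past the threshold, those with the highest intensity, the largest differences or calls that change, and a few by role. List genes named are those past the threshold and some others, chosen after their values were seen. Protein sequences were not used here.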

Additional observations from a re-analysis of the deposited data

How the results depend on the processing

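Zbtb46 kept its direction and its call in all 12 alternatives that could test it. It lay under the filter when genes above the 60th percentile were tested. Leaving out 1 array at a time gave -1.07 to -0.97 for Zbtb46 and -0.38 to -0.24 for Zbtb16, which passed without Id2 KO replicate 2 alone among these. Zbtb16 also passed when quantile normalized again (-0.31). Over these fits the calls numbered 441 (without WT replicate 1) to 1159 (without Id2 KO replicate 2) of all genes, against 962, with 621 without WT replicate 2. They numbered 1 to 4 of the members, against 2, with 4 without Id2 KO replicate 2 and 1 without each of the others. They numbered 0 (without either WT array) to 3 of the partner list, against 2, and 4 (without either WT array) to 9 of the target list, against 7. Without a filter and with genes above the 60th percentile, 1 member and 1 partner were called. The partner count was also 1 with probe sets averaged per gene, with an intensity trend and without X- and Y-linked genes. The cause of these changes was not tested, except that the stricter filter leaves Zbtb46 out and the last leaves X-linked Bcorl1 out. The 12 other BTB genes gave 0 calls in each alternative of limma; at an unadjusted p below 0.05 the count was 0.

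The groups share replicate numbers, but nothing in the labels pairs them, and the deviations of same-numbered arrays correlated at -0.14 over 11963 genes. With the number as a replicate block, 684 genes, 1 member (Zbtb46) and 1 partner were called, and the adjusted p was 0.138 for Zbtb16 and 0.107 for Zbtb18. With the numbers crossed, an alternative chosen after seeing the data, the replicate block gave 1380 genes, 5 members and 5 partners, and Zbtb16 passed at -0.31.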
